A study of Mus musculus with 23 samples.

Results

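A set of 10 genes of the bone morphogenetic protein (BMP) pathway was followed through retinal organoids, and each of the 10 was found among the 52143 genes of the deposited table by its symbol on a reference chromosome. They are the ligands Bmp2, Bmp4, Bmp6 and Bmp7, the secreted antagonist Nog, the target genes Id1, Id2 and Id3, and the inhibitory SMADs Smad6 and Smad7. The list was chosen by the level of Bmp2, which was low in organoids given docosahexaenoic acid (DHA) at day 32, so the medium differences of Bmp2 at day 32 are given as a description. Those libraries also enter the fits over several groups, where Bmp2 is set aside or their part is named.

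The organoids came from 1 clone of mouse induced pluripotent stem cells, made from fibroblasts of Nrl-GFP embryos (GFP under the rod gene Nrl) by doxycycline-inducible lentiviral factors and differentiated by the modified HIPRO protocol. From day 10 the medium of each group held bovine serum albumin (BSA) alone, BSA with 26 µM linoleic acid (LA), or BSA with 26 µM DHA, and all of them also received taurine, 9-cis retinal and IGF1 from day 10. At day 26 all cultures changed to a medium that added B27, amino acids and 2% serum, and some also received FGF1 at 200 ng/ml. Neural retina dissected from 12 organoids was sequenced at day 26 (2 libraries each in BSA, LA and DHA), at day 32 without FGF1 (3 each) and at day 32 with FGF1 (3 in BSA, 3 in LA, 2 in DHA). The labels call the replicates biological, and all of them trace to that single clone.

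The 23 libraries fell into 2 sets by depth. The 12 libraries of day 26 and of replicates 1 and 2 at day 32 with FGF1 held 16029580 to 20510550 counts each, and the other 11 held 10405663 to 11888224. Every library without FGF1 at day 32 was in the shallower set and every library of day 26 in the deeper one, so day 32 without FGF1 against day 26 cannot be told apart from the library set, and tests were run only within a set. The authors left 5 shallower libraries out of their normalized table: replicate 1 of each medium without FGF1, and replicate 3 of BSA and of LA with FGF1. The labelled tissue was borne out by the photoreceptor genes Crx (958 to 1480 CPM, counts scaled to the library size) and Nrl (495 to 1032 CPM), present in all 23 libraries.

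BMP ligands are secreted dimers that bind paired type I and type II serine/threonine kinase receptors, which phosphorylate the receptor SMADs. These enter the nucleus with Smad4 and switch on target genes, of which Id1, Id2 and Id3 are the best known. ID proteins lack a DNA-binding domain and hold basic helix-loop-helix factors away from DNA. Smad6 and Smad7 are induced by the same signal and damp it, and noggin binds the ligands outside the cell. In the eye, Bmp4 and Bmp7 are needed for lens and optic vesicle development, and Bmp4 sets dorsal identity in the retina, where Tbx2, Tbx3 and Tbx5 follow it.

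The ligand genes lie at chr2:133552159-133562885 (Bmp2), chr14:46383520-46390669 (Bmp4), chr13:38345107-38500302 (Bmp6) and chr2:172868012-172940321 (Bmp7) in GRCm38.p6, and Nog lies at chr11:89300638-89302332. Id1 spans chr2:152736251-152737410, Id2 chr12:25093799-25097140, Id3 chr4:136143497-136145755 and Smad6 chr9:63953076-64022059. All 10 are annotated as protein-coding. Promoters of 300 bases (250 before the start site and 50 after it, RefSeq on GRCm38.p6) were at hand for 5 of the 10: Id2, Id3, Smad6, Bmp4 and Bmp6. The 3 shown here belong to the members whose levels differ in kind below: Id2 rose, Smad6 fell, and Id3, with the highest level at day 26, did not pass the test. Capitals mark GGCGCC, a palindrome that SMAD proteins bind in some target genes, and the SMAD element CAGAC or its reverse complement GTCTG.

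Id2, chr12:25096043-25096342, minus strand: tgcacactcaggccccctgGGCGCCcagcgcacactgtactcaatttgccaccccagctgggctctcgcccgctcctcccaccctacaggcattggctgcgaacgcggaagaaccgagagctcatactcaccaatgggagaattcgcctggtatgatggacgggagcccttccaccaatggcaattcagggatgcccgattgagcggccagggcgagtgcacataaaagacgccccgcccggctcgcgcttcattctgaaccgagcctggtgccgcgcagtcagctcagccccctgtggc
Id3, chr4:136143572-136143871, plus strand: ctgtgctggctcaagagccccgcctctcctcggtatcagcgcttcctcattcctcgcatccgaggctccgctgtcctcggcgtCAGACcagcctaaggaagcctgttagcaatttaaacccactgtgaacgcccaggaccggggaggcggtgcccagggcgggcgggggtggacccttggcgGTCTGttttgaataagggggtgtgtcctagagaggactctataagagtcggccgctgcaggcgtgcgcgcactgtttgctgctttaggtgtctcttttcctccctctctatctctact
Smad6, chr9:64022010-64022309, minus strand: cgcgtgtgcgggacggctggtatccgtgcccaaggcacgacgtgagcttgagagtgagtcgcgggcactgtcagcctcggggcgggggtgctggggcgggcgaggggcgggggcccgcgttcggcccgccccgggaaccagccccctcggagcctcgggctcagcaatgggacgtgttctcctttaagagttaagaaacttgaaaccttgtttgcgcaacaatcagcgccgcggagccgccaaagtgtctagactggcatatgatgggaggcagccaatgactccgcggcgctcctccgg

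Id2 held 1 GGCGCC in this window and Id3 held 2 copies of CAGAC or GTCTG, while the Smad6 window held neither. Bmp6 held 1 CAGAC or GTCTG and Bmp4 held neither motif. Over all 32851 promoters of this length, 11.9% held GGCGCC and 49.6% held CAGAC or GTCTG on either strand, and the motifs do not overlap each other. These are matches of letters in a short window and not sites of binding. The RefSeq start used for Id2 lies 1048 bases from the gene start of the deposited table, and that of Id3 lies 325 bases from it.

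Per unit of transcript length, the ID genes stood above the ligands in the day 26 organoids. On a length-corrected scale (TPM) computed from the deposited transcript counts and GENCODE M21 lengths, the mean level over 6 day 26 libraries was 33.2 ± 7.19 (SD) for Id3, 19.3 ± 4.18 for Id2 and 16.1 ± 2.57 for Id1. Smad7 followed at 7.94 ± 1.40 and Bmp7 at 6.35 ± 1.69, then Bmp4 at 2.96 ± 0.657. The lowest levels were Smad6 at 1.51 ± 0.328, Bmp2 at 1.06 ± 0.195, Nog at 0.823 ± 0.344 and Bmp6 at 0.655 ± 0.237. Bmp7 was thus the ligand gene with the highest level, and the ranges of neighbours in this order overlapped for Id2 and Id1, for Smad7 and Bmp7, and along the whole run from Smad6 to Bmp6. At day 32 with FGF1 (6 deeper libraries) Id2 led the order at 53.1 ± 30.6, followed by Id3 at 39.8 ± 22.0 and Id1 at 23.0 ± 9.96. In that order only Smad7 (7.72 ± 1.75) and Bmp4 (2.79 ± 1.24) were neighbours whose ranges did not overlap.

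**Figure D1:**
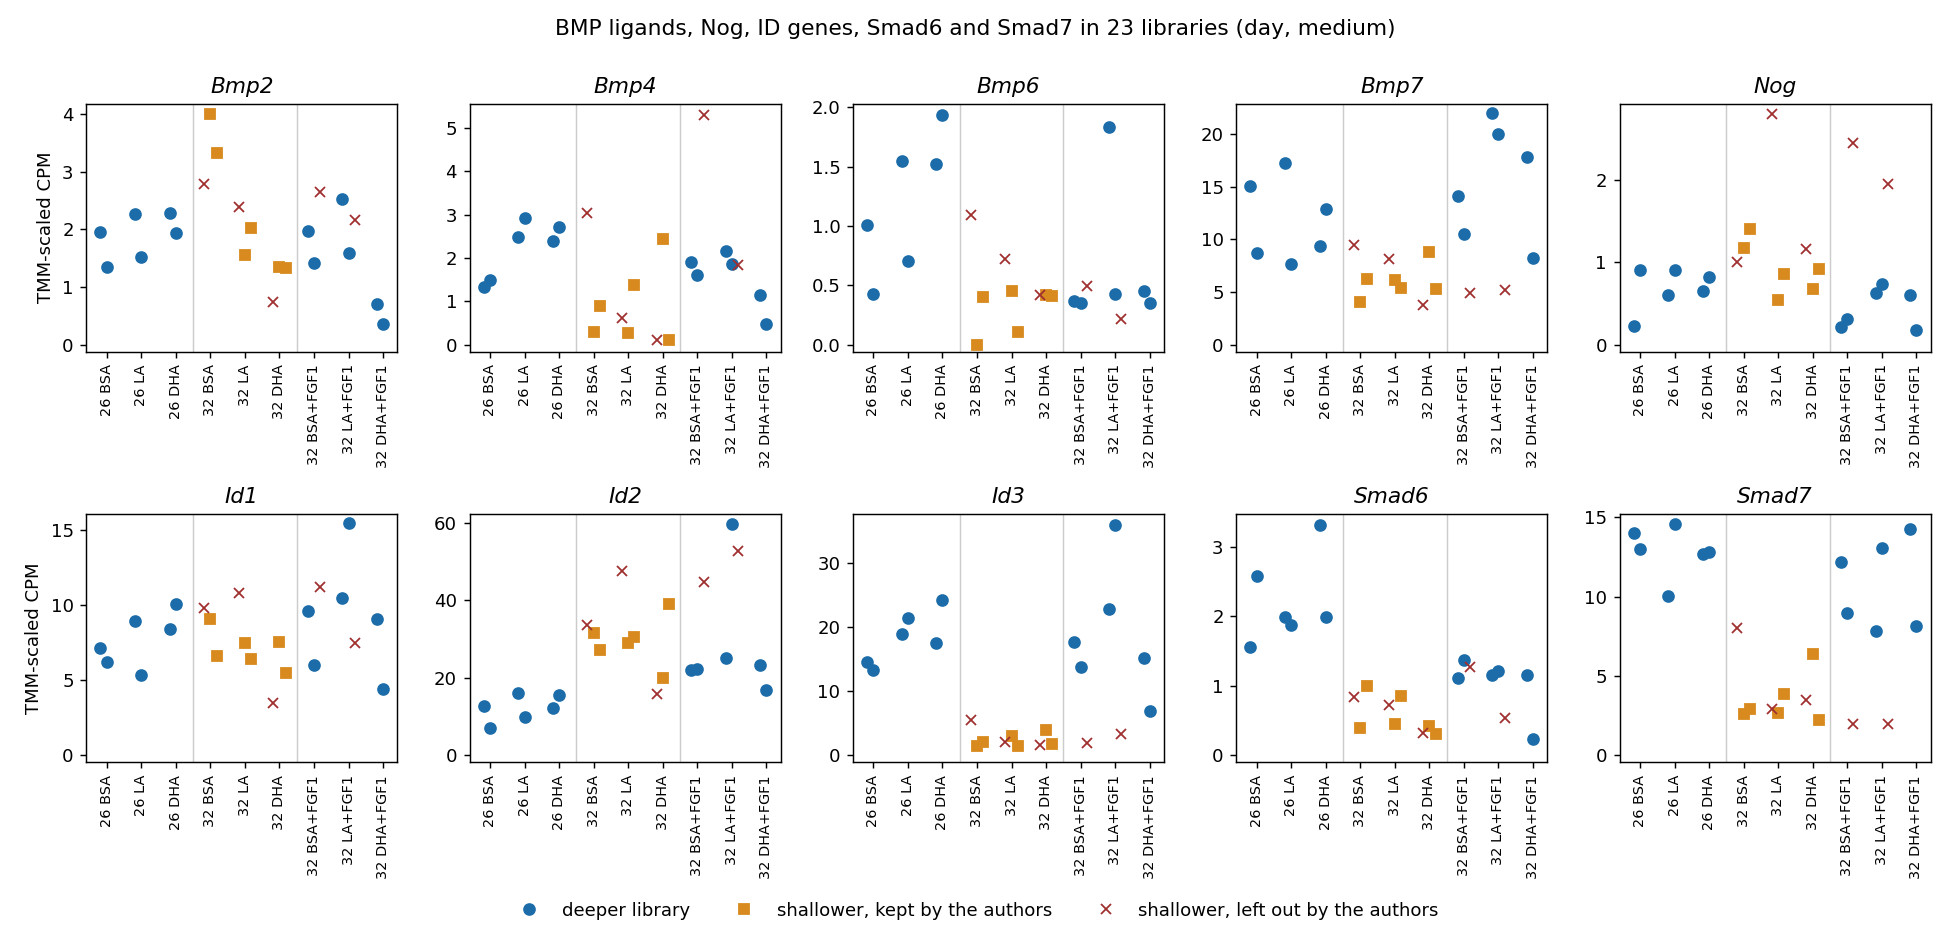
Level of each of the 10 genes in every library, in CPM scaled by TMM over all 23 libraries (vertical axis, from 0), against day and medium (horizontal axis); circles are deeper libraries, squares shallower libraries and crosses shallower libraries that the authors left out. Id2 lies between 7.08 and 16.1 CPM at day 26 and above that range in the deeper libraries of day 32 with FGF1, and Id3 is at most 5.55 CPM in the shallower libraries and at least 6.97 in the deeper ones.

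From day 26 to day 32 with FGF1, Id2 rose and Smad6 fell, and the other 8 members did not pass the test. This step joins 6 days of culture, the change of medium and FGF1, which cannot be told apart in the deeper libraries. Over all 20111 genes tested with edgeR's quasi-likelihood test, 14.6% were higher and 14.1% lower at an adjusted p under 0.05, so 1 member higher and 1 lower of 10 lies near the background. The median log2 difference over the 10 members was -0.39, against 0.0027 over all genes tested. That median includes Bmp2, whose low level in DHA at day 32 chose the list. With Bmp2 set aside, the middle value was that of Smad7, at -0.22.

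Id2 measured 12.8 and 7.08 CPM in the BSA libraries of day 26, 16.1 and 9.86 in LA, and 12.2 and 15.6 in DHA. At day 32 with FGF1 it measured 22.1 and 22.2 CPM in BSA, 25.0 and 59.6 in LA, and 23.3 and 17.0 in DHA. The lowest library of day 32 lay above the highest of day 26, and the spread at day 32 was set mainly by the second LA library. The log2 difference was 1.16 ± 0.231 (SE; adjusted p = 0.0031, edgeR), or 2.24-fold, with 6 of 6 libraries higher. Id2, an inhibitor of helix-loop-helix factors that is also expressed in differentiating neurons and glia, kept this call in each of the 19 alternatives tried, with log2 differences of 0.91 to 1.33. Groups did not overlap, in the higher direction, for 8.38% of all genes and, in the lower direction, for 7.84%; of the members Id2 was such a gene in the first sense and Smad6 in the second.

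Smad6, which blocks BMP receptor signalling by competing for the receptor SMADs, measured 1.57 and 2.57 CPM in BSA at day 26, 1.99 and 1.87 in LA, and 3.31 and 1.99 in DHA. At day 32 with FGF1 it measured 1.12 and 1.37 CPM in BSA, 1.15 and 1.22 in LA, and 1.16 and 0.236 in DHA. All 6 libraries of day 32 lay below all 6 of day 26. The log2 difference was -1.07 ± 0.318 (SE; adjusted p = 0.0252, edgeR), or 2.11-fold lower. These are low counts, from 4.46 to 61.4 a library. Leaving out any 1 of 7 libraries ended the call, at adjusted p = 0.0501 to 0.0775 by edgeR: BSA 2, LA 1 and DHA 1 of day 26, and BSA 1, BSA 2, LA 1 and LA 2 of day 32 with FGF1.

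Among the ligands, Bmp6 had the largest difference on this step without passing, at -0.98 ± 0.402 (SE; adjusted p = 0.0908, edgeR). It ranged from 0.429 to 1.93 CPM at day 26 (median 1.26) and from 0.355 to 1.84 at day 32 with FGF1 (median 0.398). The top of the later range was the first LA library alone; without it the difference was -1.45 and passed (adjusted p = 0.017, edgeR), as it also did with no filter on low counts (0.018) and with the replicate number as a block (0.0489). Bmp4 differed by -0.55 ± 0.231 (adjusted p = 0.0954, edgeR) and passed at -0.82 when the first DHA library of day 32 with FGF1 was left out (adjusted p = 0.022). Bmp2 differed by -0.57 ± 0.259 (adjusted p = 0.122), a value that includes the DHA libraries behind the choice of the list, and Bmp7, the ligand of highest level, by 0.38 ± 0.246 (adjusted p = 0.281, edgeR).

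The antagonist Nog stayed at low counts, from 0.224 to 0.912 CPM at day 26 and from 0.177 to 0.742 at day 32 with FGF1, with a log2 difference of -0.67 ± 0.398 (adjusted p = 0.233, edgeR). Id1 ranged from 5.36 to 10.1 CPM and then from 4.43 to 15.4, a difference of 0.24 with a 95% interval of -0.23 to 0.72. Id3 ranged from 13.2 to 24.1 CPM and then from 6.97 to 35.8, a difference of -0.03 with an interval of -0.45 to 0.38. Smad7, which inhibits both BMP and TGF-beta receptors, ranged from 10.0 to 14.6 CPM and then from 7.87 to 14.3, a difference of -0.22 with an interval of -0.62 to 0.18. Of the 3 ID genes only Id2 passed, and the intervals of Id1 and Id3 span both signs.

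**Figure D2:**
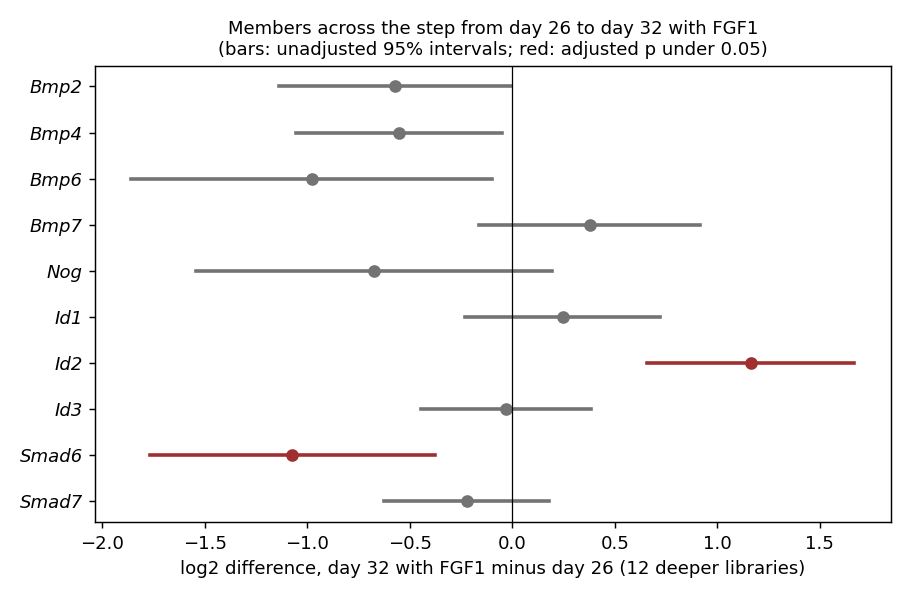
Log2 difference of each gene, day 32 with FGF1 minus day 26 (horizontal axis), averaged over the media in 12 deeper libraries; bars are unadjusted 95% intervals and red marks an adjusted p under 0.05. Id2 at 1.16 and Smad6 at -1.07 are the members in red.

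The deposited gene counts of some members were not the sum of their deposited transcript counts. The ratio of the transcript sum to the gene count ran from 0.99 to 1.04 over libraries for Bmp2 and from 0.979 to 1.04 for Id2, but from 0.209 to 2.08 for Bmp4 and from 0.361 to 1.22 for Id3. With summed transcript counts in place of the gene counts, an alternative chosen after seeing the data, Id2 rose by 1.15 (adjusted p = 0.00315, edgeR) and Smad6 fell by 0.88 (adjusted p = 0.0401). Bmp6 moved from -0.98 to -0.41 (adjusted p = 0.436, edgeR) and Bmp4 from -0.55 to -0.13 (adjusted p = 0.767). Bmp4-201 and Bmp4-202 carried 30.7% and 60.5% of the transcript counts of Bmp4 in the deeper libraries and 44.6% and 39.7% in the shallower ones.

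Other ligands, receptors and antagonists of the pathway rose and fell on the same step. These lists were chosen with earlier results of these data known, so their counts are a description. Over all genes tested on this step, 14.6% rose and 14.1% fell. Of 15 other BMP and GDF ligand genes, 9 passed the count filter, of which 4 rose and 2 fell. Bmp3, whose product is known to oppose other BMPs, went from 1.40 ± 0.372 to 12.6 ± 2.94 CPM (SD, 6 libraries each), a log2 difference of 3.19 (adjusted p = 2.0e-06, edgeR). Bmp15, known as an oocyte factor, went from 2.32 to 9.85 CPM, and Bmp1, a protease that cleaves procollagen and chordin rather than a BMP of the usual kind, rose by 1.31. Gdf6, a ligand active in the dorsal eye, fell by 1.67 (2.04 to 0.63 CPM), and Gdf11 fell by 0.68.

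Of 22 genes listed as other antagonists, 19 passed the filter, of which 8 rose and 3 fell. Bmper, which binds BMPs outside the cell, rose by 2.00, Chrdl1 by 1.65 and Bambi, a receptor decoy and BMP target, by 1.16. Bambi shows the size of the change most plainly, at 9.06 to 11.9 CPM in day 26 libraries and 18.9 to 25.8 at day 32 with FGF1. Kcp, which is on this list but need not act as an antagonist, fell by 1.33, and Grem1 fell by 1.2. Among the 14 genes tested on the list of receptors and SMADs, 4 rose and 2 fell. The type I receptor Acvrl1 rose by 1.54, the co-receptor Rgma by 1.57 and Bmpr1a by 0.49. The receptor SMAD Smad1 fell by 0.45, and Smad4, the partner of the receptor SMADs, by 0.35.

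Of the 17 other BMP target genes, 15 were tested, of which 2 rose and 3 fell. Id4, the remaining ID gene, rose by 0.47 and Hes1 by 0.50, and Tbx3, Tbx5 and Runx2 fell by 0.83, 0.92 and 1.13. Tbx3 and Tbx5 are also on the list of dorsal retina genes, where 4 of 6 fell and none rose (the others were Efnb1 at -0.60 and Efnb2 at -0.71), with a median of -0.67. Tbx2, on both lists, measured -0.10 and did not pass (adjusted p = 0.566, edgeR). On the list of ventral retina genes 2 of 5 fell (Ephb2 by 0.41 and Ephb3 by 0.59) and none rose. Of 9 TGF-beta genes tested, Tgfb2 rose by 1.26, and Tgfb3 and Tgif1 fell by 0.66 and 0.55. Gdf6, Grem1, Smad4 and Hes1 lay outside the naming rule and were chosen after their values were seen.

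**Figure D3:**
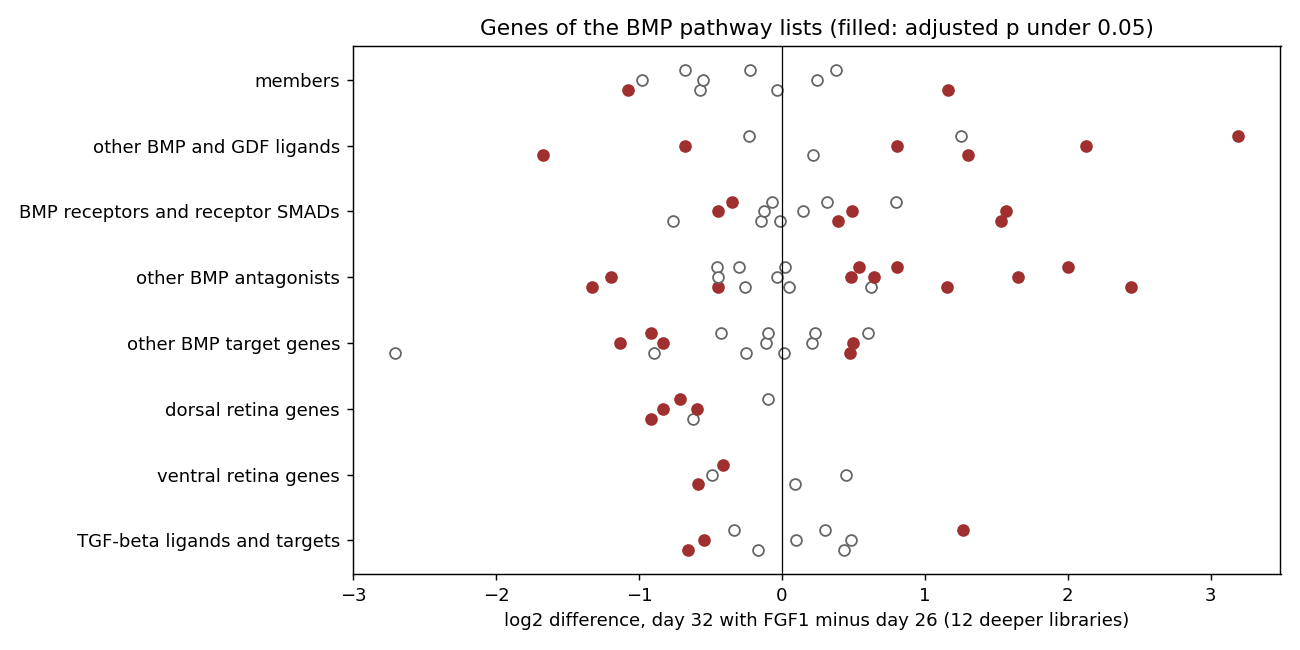
Log2 difference, day 32 with FGF1 minus day 26 (horizontal axis), for every tested gene of 8 lists (vertical axis, points staggered for view); filled points have an adjusted p under 0.05. Bmp3, at 3.19, is the point farthest to the right, and no dorsal retina gene lies above 0.

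Some markers of other cell types also passed the test on this step, where 14.6% of all genes tested rose and 14.1% fell. Of 9 Müller glia markers, 5 rose and none fell, and their summed level ran from 1014 to 1558 CPM at day 26 and from 1733 to 2856 at day 32 with FGF1. Of 8 tested pigment epithelium markers 3 fell, with summed levels of 26.1 to 388 CPM and then 18.3 to 300 CPM, and Rpe65 was listed at 0 in the day 26 libraries. Of 10 mesenchyme markers 2 rose and none fell, and of 12 retinal neuron markers 4 rose and 4 fell. Of 9 ciliary margin markers, a list that includes Bmp7, 1 rose and 1 fell. Of 4 endothelial markers tested 1 rose, and neither of 2 lens markers tested passed. The counts of mesenchyme, ciliary margin, endothelial and lens markers lie near the shares over all genes, and no result is read from them. In these tissue libraries, fewer cells of a type and less RNA per cell cannot be told apart, and the part of these cells in the values of Id2 and Smad6 was not tested.

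Between media, averaged over both states of the deeper libraries, none of the 9 members other than Bmp2 passed the test. In DHA minus BSA 0% of the 20111 genes passed at an adjusted p under 0.05 by edgeR, and DESeq2 also called 0. An unadjusted p under 0.05 was found for 311 genes, which is 1.55%. In LA minus BSA and in DHA minus LA 0.00497% of the genes passed, which is 1 gene each, and neither was a member, while DESeq2 called 28 and 33. For DHA minus LA, 8 of the 9 members other than Bmp2 had a negative value, with a median of -0.45 against -0.012 over all genes tested. The members share libraries, and the share of all genes with a negative value was not counted. The smallest adjusted p of a member in these comparisons was 0.895 for Id3 in DHA minus LA (log2 difference -0.70, 95% interval -1.21 to -0.19, edgeR). The unfiltered fit of 334 and 359 called genes called Id3 and Id2 in LA minus BSA (0.73 and 0.67; adjusted p = 0.00531 and 0.0145) and Id3 in DHA minus LA (-0.69; adjusted p = 0.0101), and no other alternative made these calls.

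At day 32 without FGF1, Bmp2 was graded by medium, which is the observation that led to the list. It measured 2.78, 4.00 and 3.31 CPM in BSA, 2.39, 1.55 and 2.03 in LA, and 0.738, 1.35 and 1.32 in DHA. All DHA libraries lay below all BSA and LA libraries, as did 0.764% of the 17798 genes fitted in these 9 libraries. The means were 3.36 ± 0.611 CPM (SD, n = 3) in BSA, 1.99 ± 0.420 in LA and 1.14 ± 0.346 in DHA, and in the libraries the authors kept they were 3.66, 1.79 and 1.34. The nearest values on either side of DHA were 1.35 CPM in DHA and 1.55 in LA, and they rest on 16.1 and 17.0 counts. Bmp2 encodes a ligand best known for bone and heart development.

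The groups of the other members overlapped between DHA and BSA. Id1, for which DHA had the lowest library, measured 9.76, 9.07 and 6.63 CPM in BSA, 10.8, 7.47 and 6.40 in LA, and 3.48, 7.51 and 5.5 in DHA. Id2 measured 33.7, 31.5 and 27.2 CPM in BSA and 15.8, 20.0 and 39.0 in DHA, so its groups crossed. Bmp4 varied widely within each medium, at 3.03, 0.292 and 0.904 CPM in BSA and 0.105, 2.45 and 0.102 in DHA. Of the 7 members besides Bmp2 that could be fitted here (Bmp6 and Smad6 did not pass the count filter), 7 had a lower value in DHA than in BSA. Their median log2 difference was -0.27 against 0.035 over all genes, and the signs of Bmp7 and Smad7 rest on values close to 0. The members share libraries and the share of all genes lower in DHA was not counted, so no result is read from the 7 signs. In the kept libraries alone Bmp4, Bmp7, Id2, Id3 and Smad7 of these 7 had a higher mean in DHA than in BSA.

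At day 32 with FGF1, Bmp2 was also lowest in DHA, with BSA and LA overlapping, and these values too fall under the choice of the list. It measured 1.97 and 1.42 CPM in BSA, 2.52 and 1.59 in LA, and 0.703 and 0.355 in DHA, the last on 14 and 5.93 counts. The log2 difference of DHA from BSA was -1.67 and from LA -1.97. At day 26 Bmp2 measured 1.96 and 1.34 CPM in BSA, 2.27 and 1.52 in LA, and 2.28 and 1.93 in DHA, and DHA minus BSA was 0.35 with a 95% interval of -0.60 to 1.3. Across the step from day 26, Bmp2 differed by 0.07 in BSA, 0.17 in LA and -1.95 in DHA.

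Bmp4 was the other ligand with both DHA libraries below all 4 others in the deeper libraries of day 32 with FGF1. It measured 1.91 and 1.60 CPM in BSA, 2.15 and 1.86 in LA, and 1.16 and 0.473 in DHA. Such a separation was shown by 8.25% of all genes, and by 1 of the 9 members other than Bmp2. The log2 difference of DHA from BSA was -1.11 (95% interval -2.02 to -0.19), and from summed transcript counts it was -1.07 (-2.23 to 0.09). At day 26 DHA (2.39 and 2.71 CPM) and LA (2.49 and 2.93) both lay above BSA (1.34 and 1.50). That day 26 difference, 0.83 for DHA minus BSA, fell to 0.30 with summed transcript counts (interval -0.79 to 1.40).

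In the deeper libraries of day 32 with FGF1, the ID genes and Bmp7 were highest in LA. Both LA libraries lay above all BSA and DHA libraries there for Bmp7, Nog, Id1, Id2 and Id3. This is 5 of 10 members, where 8.66% of all genes did so. Bmp2, whose day 32 level chose the list, is counted in the 10 and was not among the 5. Id3 measured 17.6 and 13.7 CPM in BSA, 22.8 and 35.8 in LA, and 15.2 and 6.97 in DHA. Its log2 difference of DHA from LA was -1.44 (95% interval -2.17 to -0.71), and that of Id1 was -0.98 (-1.80 to -0.15) and of Id2 -1.11 (-1.97 to -0.25). Id1, the member most often read as a BMP response gene, measured 9.61 and 6.03 CPM in BSA, 10.4 and 15.4 in LA, and 9.04 and 4.43 in DHA. Bmp7 measured 14.1 and 10.5 CPM in BSA, 22.0 and 20.0 in LA, and 17.8 and 8.27 in DHA. These members share libraries, and LA 2 is the highest of these deeper libraries for Id1, Id2, Id3 and Nog alike. Smad7 showed no such order, at 12.2 and 9.00 CPM in BSA, 7.87 and 13.1 in LA, and 14.3 and 8.16 in DHA.

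At day 26, both DHA libraries were above both BSA libraries for Bmp4, Bmp6, Id1 and Id3 and below them for Smad7, where 12.3% and 11.7% of all genes did so. Bmp6 measured 1.01 and 0.429 CPM in BSA and 1.52 and 1.93 in DHA, a log2 difference of 1.25 (95% interval -0.19 to 2.69). With summed transcript counts its groups overlapped and the difference was 0.21 (-1.16 to 1.58). The DHA and BSA groups of Bmp4 and Smad7 also overlapped with those counts, while those of Id1 and Id3 did not. LA lay above BSA for Bmp4 and Id3, where 12.2% of genes did so. With summed transcript counts this held for Id3 and not for Bmp4. Whether the medium differences changed between day 26 and day 32 with FGF1 was tested as an interaction in 1 fit. By edgeR 0% of genes, and so none of the 9 members other than Bmp2, passed at an adjusted p under 0.05. An unadjusted p under 0.05 was found for 720 genes (3.58%), and DESeq2 called 14.

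**Figure D4:**
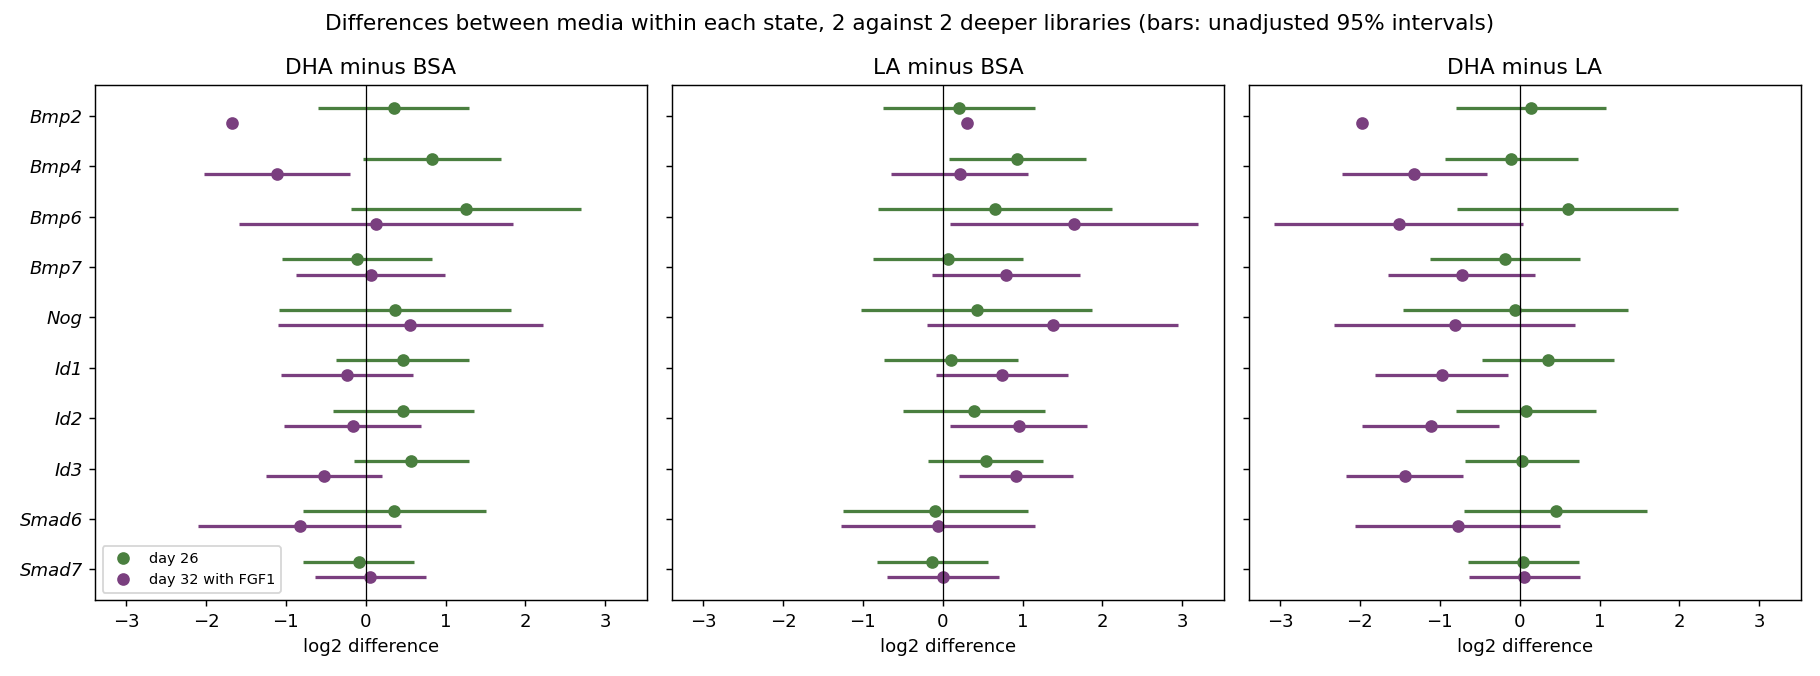
Log2 differences between media (horizontal axis; DHA minus BSA, LA minus BSA and DHA minus LA) for each gene, at day 26 (green) and at day 32 with FGF1 (purple), 2 against 2 deeper libraries; bars are unadjusted 95% intervals, and Bmp2 has no bar at day 32, where its level chose the list. In DHA minus LA at day 32 with FGF1, Bmp2 lies at -1.97, Id3 at -1.44 and Bmp4 at -1.32.

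The effect of FGF1 itself could be read only in the 11 shallower libraries, where 2 libraries had it, both left out by the authors. With a term for the left-out libraries, 0% of 18029 genes passed by edgeR, and DESeq2 called 7. An unadjusted p under 0.05 was found for 342 genes (1.9%). Of the 9 members tested, all but Bmp6, 0 passed. These 9 include Bmp2, whose low level in DHA at day 32 chose the list, and the DHA libraries without FGF1 are in this fit. Smad7 measured 1.96 CPM in BSA and 1.95 in LA with FGF1, and 2.24 to 7.99 in the 9 libraries without it. The share of all genes separated in this way was not counted, so no result is read from it. Its log2 difference was -1.22 (95% interval -2.64 to 0.21). Id2 measured 44.8 and 52.8 CPM with FGF1 and 15.8 to 47.5 without (0.51, -0.31 to 1.32). Bmp4 had the widest interval, 1.52 (-1.20 to 4.24), and its value was -0.26 with summed transcript counts. Between left-out and kept libraries 0.316% of genes passed, none of them a member.

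Levels of several members differed between the library sets within the same labelled groups, though members separated less often than all genes did. Both shallower libraries compared here were also left out by the authors, so library set and left-out status cannot be told apart. In BSA and LA with FGF1, the deeper libraries held 8.40 and 9.01 times the Id3 CPM of the shallower library, 5.40 and 5.38 times the Smad7 and 2.51 and 4.04 times the Bmp7. Nog went the other way, with 9.39 and 2.84 times as much in the shallower library. The sets did not overlap for 3 of 10 members that were lower in the shallower set (Bmp7, Id3 and Smad7), as were 39.5% of all genes. They did not overlap for 1 that was higher (Nog), as were 30.9%. With summed transcript counts the ratio was 23.7 and 11.6 for Id3 and 2.99 and 3.31 for Smad7. Transcript Smad7-202 carried 17.8% of the Smad7 transcript counts in the deeper libraries and was listed at 0 in the shallower ones, and Id1-202 carried 14.3% and 1.54% of Id1. The low Id3 of day 32 without FGF1 (1.39 to 5.55 CPM) was thus matched by the shallower libraries with FGF1 (1.87 and 3.25), and its gap to day 26 cannot be told apart from the library set.

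Across the 23 libraries, with the mean of each of 4 classes (day 26, deeper day 32 with FGF1, shallower kept, shallower left out) removed, the gene most like Bmp2 was Tyr, the tyrosinase of melanin synthesis. Pearson's r was 0.91 and Spearman's rho 0.875 over 12689 genes searched, and r was 0.871 without the 2 libraries farthest from the median of Bmp2. Gsta3 (r = 0.845) and Gpnmb, a melanosome protein (r = 0.819), came next. The same search gave Emp2 (0.893), Gja1 (0.838) and Gramd3 (0.83) for Id1, and Mut (0.816), Nr2f1 (0.733) and Mob1a (0.685) for Nog. The points share libraries, depth and dissection, and each gene was picked as the highest of the search, so these values are a description. The mean of each medium was not removed. The values for Bmp2 therefore include the day 32 DHA libraries in which its low level chose the list.

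In the deeper day 32 libraries with FGF1, Tyr measured 2.92 and 2.93 CPM in BSA, 7.50 and 11 in LA, and 0.201 and 0.118 in DHA. The summed level of the 10 pigment epithelium markers ran from 30.6 to 175 CPM in BSA, 197 to 300 in LA and 18.3 to 26.2 in DHA there, with Rpe65 listed at 0 in LA and DHA. At day 32 without FGF1 it ran from 63.7 to 113 CPM in BSA, 28.8 to 141 in LA and 24.0 to 39.6 in DHA, with Rpe65 at 0 in each medium, Best1 in LA and Mlana in DHA. At day 26 the sum was 26.1 to 249 CPM in BSA, 52.4 to 388 in LA and 138 to 157 in DHA. None of the 10 mesenchyme markers was at 0 in any group. In the deeper libraries of day 32 with FGF1 they summed to 68.1 to 94.2 CPM in BSA, 166 to 509 in LA and 61.4 to 97.2 in DHA. Both LA libraries lay above the other 4 of these deeper libraries. The 9 ciliary margin markers, among them Bmp7, summed to 428 and 470 CPM in BSA, 502 and 669 in LA, and 399 and 494 in DHA there. The 9 Müller glia markers summed to 1733 and 2053 CPM in BSA, 1930 and 2856 in LA, and 1927 and 1851 in DHA. Among the deeper libraries of day 32 with FGF1, LA 2 was highest for ciliary margin and Müller glia markers. LA 1 was highest for mesenchyme (509 against 166 CPM in LA 2) and pigment epithelium markers (300 against 197 CPM). The part of pigmented, mesenchymal, ciliary margin or glial cells in the values of Bmp2 and the ID genes was not tested.

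**Figure D5:**
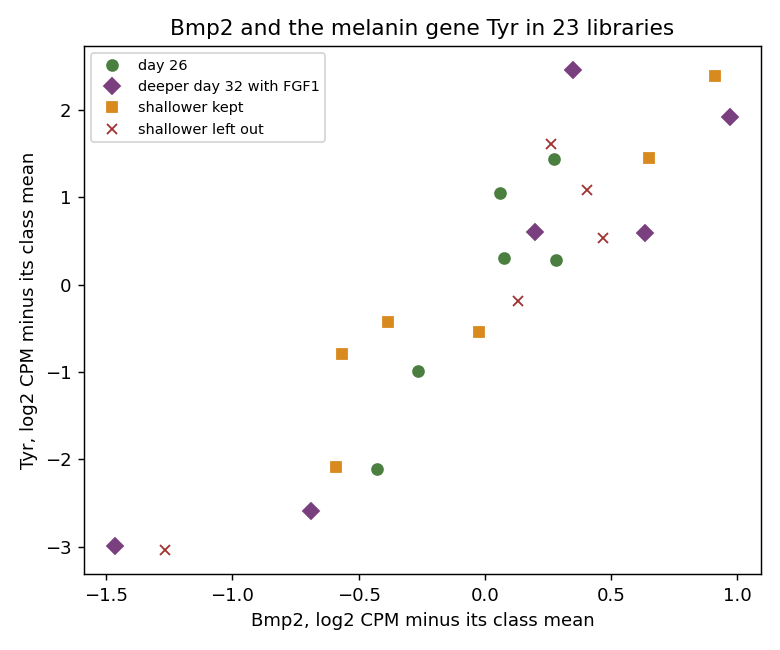
Tyr against Bmp2 in 23 libraries, both as log2 CPM minus the mean of the library's class; symbols show the 4 classes. The 3 libraries lowest in Tyr, at -3.04, -2.99 and -2.59, were DHA libraries of day 32, and Bmp2 lay at -1.27, -1.47 and -0.69 in them.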

How the data were processed

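The authors deposited expected counts per gene and per transcript for 23 libraries. Per the submitters' processing notes, reads were handled with Trimmomatic 0.36, kallisto 0.45.0 and edgeR on GRCm38.p6; the order of steps and the strand setting are not given in the sources used here. A further deposited table of the authors' normalized signal (normalized CPM, 18 libraries) gave gene names, positions and the 5 libraries left out, and no measured values. The members and lists were chosen with earlier results of these data known. Expected counts were rounded and tested with edgeR 4.0.16 (filterByExpr, TMM, quasi-likelihood F test, Benjamini-Hochberg over all genes, threshold 0.05) in R 4.3.3, in the 12 deeper libraries with 1 mean per medium and state, and in the 11 shallower libraries with terms for medium, FGF1 and left-out status. Intervals are 95% and unadjusted. CPM values are TMM-scaled over all 23 libraries. Medium differences at day 32 without FGF1 were fitted in 9 libraries as values with no test. Named genes were the 10 members, up to 4 genes of each list with the smallest p, and the 3 genes most like Bmp2, Id1 and Nog (mean log2 CPM of at least 1). TPM values used GENCODE M21 lengths. Alternatives were RLE factors, no filter, DESeq2 1.42.0, limma voom 3.58.1, a replicate block, all 23 libraries, each library left out and, added after seeing the data, summed transcript counts. The fitting was tested on simulated data.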

Additional observations from a re-analysis of the deposited data

Results flagged for a closer look

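In 30 groups of members' values (10 genes in the 6 libraries of day 26, the 6 deeper libraries of day 32 with FGF1 and the 9 libraries of day 32 without FGF1), 4 held a single library far from the others by Dixon's criterion. Its rate of about 1 in 20 groups by chance holds for libraries of 1 kind. These groups join BSA, LA and DHA and share libraries, so the 4 cannot be set against that rate. Bmp6 was at 1.84 CPM in LA with FGF1 replicate 1, against 0.355 to 0.452 CPM in the other 5 libraries. Nog was at 2.80 CPM in LA without FGF1 replicate 1, which the authors left out, against 0.546 to 1.41 CPM in the other 8. Id2 was at 59.6 CPM in LA with FGF1 replicate 2, against 17.0 to 25.0 CPM; without that library Id2 still passed the test between day 32 with FGF1 and day 26. Smad6 was at 0.236 CPM in DHA with FGF1 replicate 2, on 4.46 counts, against 1.12 to 1.37 CPM.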

How the results depend on the processing

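The counts of genes past an adjusted p of 0.05 were compared across settings. For day 32 with FGF1 minus day 26 the count of 5773 was 2860 with all 23 libraries in the fit, and it ran from 4326 to 5899 with 1 library left out. With no filter on low counts, DHA minus BSA gave 72 genes, LA minus BSA 334, DHA minus LA 359, the interaction 342, FGF1 in the shallower libraries 32, and left out minus kept 214. DESeq2 gave 28 for LA minus BSA, 33 for DHA minus LA, 14 for the interaction, 7 for FGF1 and 152 for left out minus kept. With all 23 libraries, and also with summed transcript counts, LA minus BSA and DHA minus LA gave 0 each. Leaving out 1 library gave 0 to 3 genes for LA minus BSA, 0 to 1 for DHA minus LA and 31 to 70 for left out minus kept, lowest without LA replicate 1 (31) or DHA replicate 1 (34).

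With the replicate block, DHA minus LA gave 2 genes and FGF1 57, of which 38 (66.7%) were also among the 57 called between left-out and kept libraries, a term the block replaces. Over all 6 deeper groups the replicate numbers did not pair the samples: of 15 pairs of groups 6 had correlated deviations over 0.1, with r from -0.123 to 0.351. Among the 3 groups of day 32 with FGF1 all 3 pairs did (0.232, 0.351 and 0.157). With a replicate block within those 3 groups, added after seeing the data, the 12 medium differences of Bmp4, Id1, Id2 and Id3 moved by less than 1 SE: Id3 in DHA minus LA was -1.51, Id1 -1.07, Id2 -1.04 and Bmp4 in DHA minus BSA -1.17. Among single members, the value kept its direction and its side of the threshold in 1056 of 1082 alternatives, fell short of the threshold in 7 (Smad6, each on leaving out 1 library), passed it in 7 and moved in 12, and the cause was not tested. Nog rested on 2.96 to 26.9 counts a library and Bmp6 on 0 to 34.8, so depth limits what can be said of them.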
